A study of Mus musculus with 12 samples.

Results

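MHC class II genes in the mouse lung were followed through 7 members, chosen by gene symbol in the list of 31053 genes of the deposited matrices: the antigen-binding chains H2-Aa, H2-Ab1 and H2-Eb1, the peptide editor chains H2-DMa and H2-DMb1, the invariant chain Cd74, and Ciita, the transcriptional coactivator of the class. All 7 were found, and each was measured as unique molecular identifiers (UMIs, 1 for each captured RNA molecule) in single-nucleus RNA sequencing of 12 lungs. C57BL/6J mice aged 7 weeks received bleomycin, which injures the lung and is used to induce fibrosis, or PBS into the trachea. From day 5 they were given NVP-BHG712, an inhibitor of the EphB4 receptor tyrosine kinase, or its solvent vehicle, once daily for 5 days, and lungs were taken on day 14. The groups are named PBS_vehicle, PBS_NVP, Bleo_vehicle and Bleo_NVP, each with 3 mice and 1 library per mouse, and all mice were wild type. The purpose of the study was to learn if inhibition of EphB4 reduces the fibrosis. Bleomycin injury is a model of 1 acute injury, nuclei hold little cytoplasmic RNA, and inflammatory cells are a changing part of such a lung, so levels below are given both for the whole lung and for each cell class.

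MHC class II molecules present peptides from outside the cell to CD4+ T cells. An alpha and a beta chain (H2-Aa with H2-Ab1, and the E beta chain H2-Eb1) pair in the endoplasmic reticulum with the invariant chain Cd74, which fills the groove until lysosomal proteases trim it, and H2-DMa and H2-DMb1 then exchange the remaining fragment for antigen peptide. Ciita does not bind DNA itself. It is recruited by factors on the X and Y boxes of class II promoters, and its own expression is inducible by interferon gamma. Dendritic cells, B cells and macrophages are the professional carriers of class II, and in the lung type II alveolar cells and part of the capillary endothelium are also known to express it. C57BL/6 mice do not make a functional E alpha chain, so H2-Eb1 RNA is made without a partner.

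On GRCm38 (GENCODE M21) the 5 chain genes lie within 1 stretch of chromosome 17: H2-DMa at chr17:34119541-34139101, H2-DMb1 at chr17:34153072-34160230, H2-Ab1 at chr17:34257689-34269419 and H2-Eb1 at chr17:34305867-34316674 on the plus strand, and H2-Aa at chr17:34282744-34287823 on the minus strand. All are protein coding. Promoters were read from a RefSeq table of GRCm38.p6, which held 4 of the 7 members (H2-Aa, H2-Eb1, H2-DMa and H2-DMb1). Within 250 bases before the start, on both strands, an X-like run (AGNNACNGA) was present in 14.7% of all 32851 promoters, the Y box letters (ATTGG, the CCAAT box read on the other strand) in 33.8%, and an X-like run followed on the same strand by a Y box, with starts 20 to 40 bases apart, in 0.21%. H2-Eb1 and H2-DMb1 held the pair, with starts 33 and 34 bases apart. H2-Aa held the Y letters alone, 48 bases before its start, and H2-DMa held them alone, 198 bases before 1 of its starts. The RefSeq starts used for H2-DMb1 and H2-DMa lie inside the GENCODE intervals given above, and so do these matches. The stretches around the boxes of H2-Eb1 (chr17:34305755-34305836, plus strand) and H2-Aa (chr17:34287843-34287925, minus strand) are shown because they contrast a chain gene with both runs of letters and a chain gene with 1 of them, the X-like run and the Y box in capitals. The last 5 letters of the H2-Eb1 stretch, 35 bases before the start and in lower case, are a further Y box on the other strand.
H2-Eb1: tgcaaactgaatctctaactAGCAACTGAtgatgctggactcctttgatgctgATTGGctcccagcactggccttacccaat
H2-Aa: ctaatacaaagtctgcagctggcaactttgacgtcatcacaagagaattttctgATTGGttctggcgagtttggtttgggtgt
A match of letters is a description of the window and not a bound site. The X-like run is 1 strict pattern, so a missing match does not mean that H2-Aa lacks an X box.

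Libraries held 3556084 to 61947690 UMIs, and 44611 of 49163 barcodes were kept as nuclei. Bleo_vehicle stood apart. Its median share of mitochondrial UMIs per barcode was 2.56%, 1.32% and 0.668% in replicates 1, 2 and 3, against at most 0.0497% in each of the other 9 libraries. The labels give the libraries of Bleo_vehicle batch numbers 6 and 7 and those of Bleo_NVP run number 4, while PBS libraries carry runs 1 to 3, so handling and bleomycin group cannot be told apart. Libraries shared at most 34 barcodes in pairs. Classes were named from marker genes, without class II genes, and are to be read as dendritic-like, type II-like and so on. Of the members outside the class II region, both protein coding and on the plus strand, Cd74 lies at chr18:60803848-60812652 and Ciita at chr16:10480059-10528418.

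Among the classes, dendritic nuclei carried the most class II RNA. In the 7 libraries with at least 20 dendritic nuclei, Cd74 stood at 488 ± 160 CPM (UMIs per 1000000 UMIs of the class in a library, SD, n = 7), Ciita at 426 ± 103, H2-Eb1 at 390 ± 239, H2-Aa at 307 ± 199 and H2-Ab1 at 253 ± 75.5. B cells followed in Cd74 with 402 ± 136 CPM (n = 6), and interstitial macrophages or monocytes with 178 ± 121 CPM (n = 11). For Cd74 the dendritic range of 302 to 703 CPM overlapped that of B cells, 167 to 576 CPM, so the order of these neighbours did not exceed the spread. Ciita ranges lay just apart, with 268 to 567 CPM in dendritic nuclei against 53.9 to 265 CPM in B cells. The editor chain H2-DMb1 was at 124 ± 86.5 CPM in dendritic nuclei and 136 ± 88.2 CPM in B cells. Its partner H2-DMa was sparse everywhere, with 8.88 ± 13.4 CPM in dendritic nuclei and 212 UMIs in all kept nuclei. UMIs here come from the 3' end of transcripts, so levels of different genes are compared only loosely.

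Outside the immune cells, type II alveolar nuclei had higher means of Cd74 and H2-Aa than general capillary nuclei, which had higher means of Ciita and H2-Ab1, with overlapping ranges. In type II nuclei Cd74 was at 84.0 ± 33.1 CPM (n = 12) with a lowest, median and highest library of 29.9, 83.9 and 143, and Ciita at 37.7 ± 11.8 CPM with 14.9, 38.6 and 54.5. General capillary nuclei held Ciita at 47.4 ± 24.2 CPM (15, 41.9 and 84.8), with less Cd74, 34.3 ± 36.5 CPM (10.2, 20.3 and 129). Their Ciita level was thus in the range of type II nuclei, while their Cd74 in PBS_vehicle, 21.2, 19.3 and 24.8 CPM, lay below the 76.0, 83.4 and 105 CPM of type II nuclei in the same libraries. Other endothelium held less Ciita, with 15.2 ± 15.8 CPM in venous, 3.69 ± 3.46 in aerocyte and 1.92 ± 4.43 in arterial nuclei. Type I alveolar nuclei had 2.02 ± 2.35 CPM of Ciita and fibroblasts 2.94 ± 4.57. Alveolar macrophages, although immune cells, were low in Cd74 (21.4 ± 19.1 CPM) and H2-Eb1 (6.47 ± 5.61 CPM), while their H2-DMb1, at 19.2 ± 8.15 CPM, lay above the 10.2 ± 5.02 CPM of type II nuclei with overlapping ranges. The plot of levels by class shows these ranges for Cd74, H2-Aa and Ciita.

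**Figure D1:**
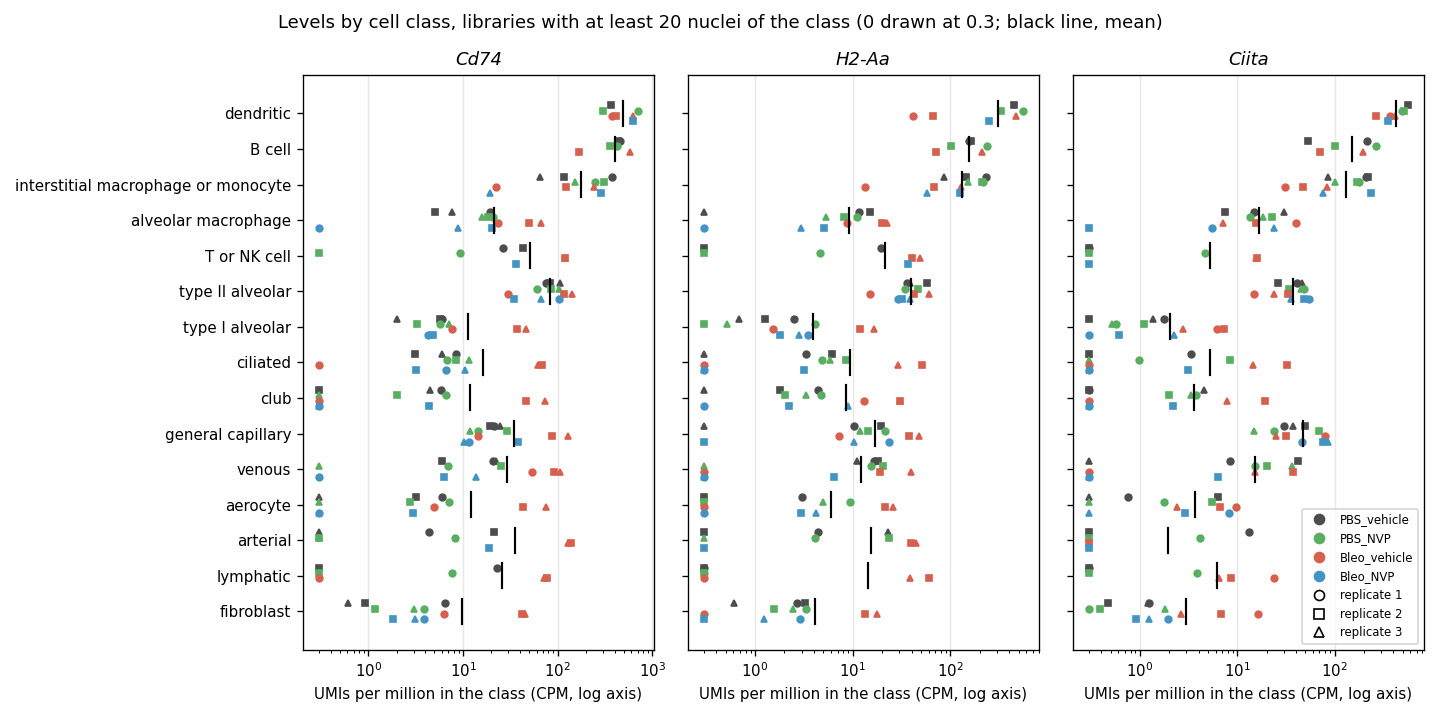
CPM of Cd74, H2-Aa and Ciita (x axes, log scale, 0 drawn at 0.3) in 15 cell classes (y axis). Each point is a library with at least 20 nuclei of the class, coloured by group and shaped by replicate, and black lines are means. The means of dendritic, B cell and interstitial macrophage or monocyte nuclei lie highest, and those of type II and, for Ciita, general capillary nuclei lie between, with single points that overlap. Alveolar macrophage means lie below those of type II nuclei. Squares and triangles of Bleo_vehicle lie to the right of the other libraries for Cd74 in the low classes.

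The share of nuclei with a UMI gave the same grouping. After thinning every nucleus to 500 UMIs, 61.5% of dendritic, 50.0% of B cell and 24.8% of interstitial macrophage or monocyte nuclei had a UMI of any member, against 12.9% of type II, 9.24% of general capillary, 2.88% of fibroblast and 2.79% of type I nuclei. T or NK cells, which in mice normally lack class II, stood at 9.77%. That share differed by group: for Cd74 alone it was 7.47% in Bleo_vehicle T or NK nuclei, near the 7.89% of type II and above the 6.65% of general capillary nuclei there, but 2.19% in PBS_vehicle and 0.587% in PBS_NVP, where type II nuclei had 4.13% and 4.03% and general capillary nuclei 1.09% and 0.856%. For Ciita alone the T or NK share was 0.477% and the fibroblast share 0.164%, below the 1.85% of type II, 1.65% of general capillary, 6.03% of interstitial macrophage or monocyte, 11% of B cell and 21.3% of dendritic nuclei. Unthinned, Ciita was seen in 9.20% of type II nuclei (median 2402 UMIs), 5.53% of general capillary nuclei (median 1798), 2.21% of T or NK nuclei (median 1256) and 0.768% of fibroblasts (median 3250).

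In PBS_vehicle, type II nuclei, 10.1% of nuclei, held 40.5% ± 19.1 (SD, n = 3) of the Cd74 UMIs, and all immune classes together, 10.7% of nuclei, held 27.9% ± 18.5. Of the Ciita UMIs in that group, general capillary nuclei held 22.9% ± 7.24, type II nuclei 24.2% ± 13.9, interstitial macrophages or monocytes 13.3% ± 3.65 and dendritic nuclei 10.0% ± 6.72. Dendritic nuclei were only 0.476% of nuclei there. Over 19 classes, and among 13400 genes with at least 10 CPM in some class, the genes other than members whose log2 mean profile correlated best with the mean profile of the 7 were Siglech (r = 0.918), BC035044 (0.911), Kmo (0.901), Fgd2 (0.895) and Haao (0.894). The classes share libraries, and Siglech and Kmo were among the markers that named the dendritic class, so these values are a description. Members themselves ranged from r = 0.905 for H2-DMa to 0.978 for H2-Aa and Cd74.

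In the whole lung, the question was whether bleomycin changed class II RNA and whether NVP-BHG712 altered that. Cd74 measured 26.0, 14.8 and 12.5 CPM in PBS_vehicle (replicates 1, 2 and 3), 22.2, 17.7 and 15.7 in PBS_NVP, 16.6, 63.9 and 88.5 in Bleo_vehicle and 14.2, 16.5 and 10.6 in Bleo_NVP. Only Bleo_vehicle replicates 2 and 3 were high, and replicate 1 of that group lay within the range of the PBS libraries. In H2-Aa, H2-Ab1 and H2-Eb1 the same pair of libraries stood above all others. H2-Aa was 14.2, 12.3 and 4.71 CPM in PBS_vehicle, 5.13, 25 and 37.1 in Bleo_vehicle and 6.25, 7.69 and 6.68 in Bleo_NVP, and H2-Ab1 was 11.5, 7.77 and 4.30, then 3.97, 20.5 and 27.3, then 1.99, 5.37 and 3.71. In both genes the lowest Bleo_vehicle library lay below the PBS_vehicle median. The editor chains did not have this shape, since H2-DMb1 in Bleo_vehicle (5.37, 7.29 and 8.57 CPM) lay within the PBS range of 3.69 to 10.3, and H2-DMa in Bleo_vehicle replicate 2 (1.47) lay below that in PBS_NVP replicate 2 (1.53). Ciita behaved otherwise, with 16.3, 13.9 and 9.02 CPM in PBS_vehicle, 22.9, 19.1 and 15.9 in Bleo_vehicle and 9.94, 16.0 and 11 in Bleo_NVP, so that its highest Bleo_vehicle library was replicate 1, the library with the least Cd74 of that group.

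**Figure D2:**
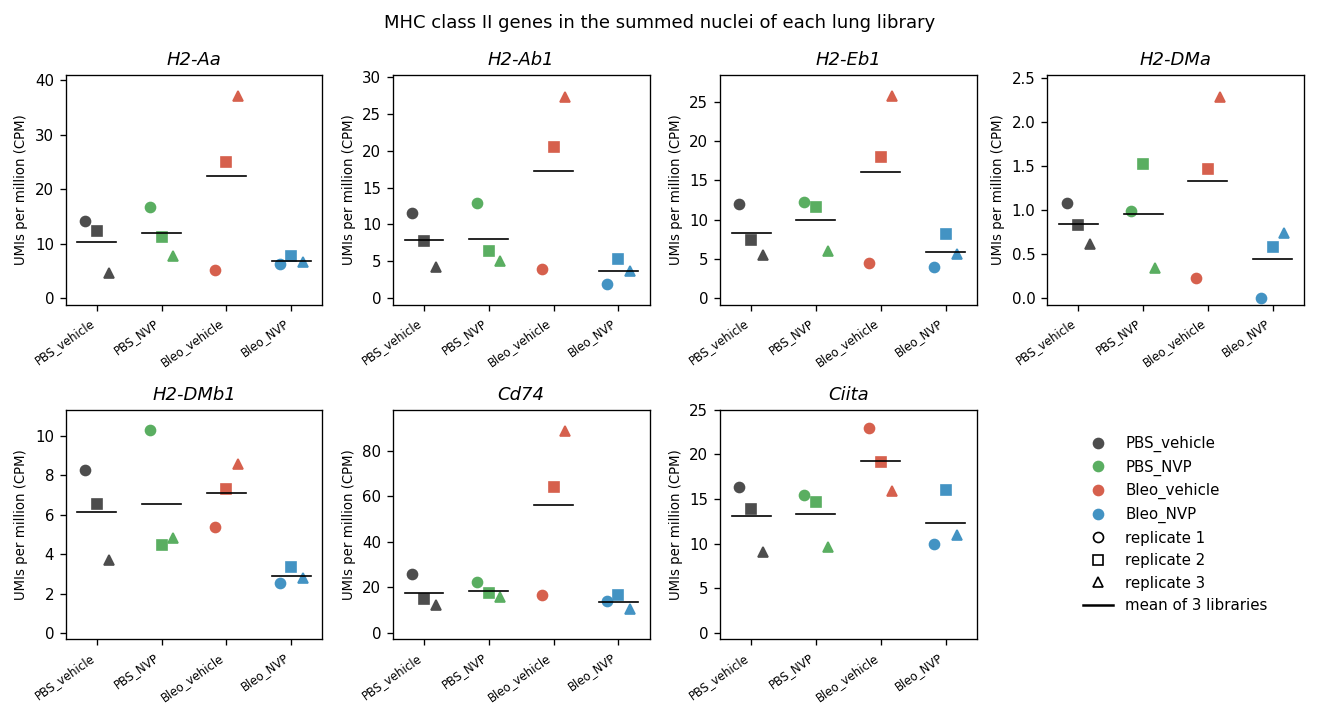
CPM of each of the 7 genes (y axes, linear) in the summed nuclei of each library, by group (x axes), with replicates by shape and the mean of 3 libraries as a line. Cd74 in Bleo_vehicle runs from 16.6 to 88.5 CPM, with replicates 2 and 3 above all other libraries, while Ciita in that group runs from 15.9 to 22.9 CPM with replicate 1 on top.

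None of the 7 members passed edgeR's quasi-likelihood test with Benjamini-Hochberg adjustment for Bleo_vehicle against PBS_vehicle, where 2.44% of the 14442 genes tested did. Their median log2 difference was 1.02, against 0.01 for all genes, and 4 of the 7 had an unadjusted p under 0.05. DESeq2 called 1 of them, Cd74, a count given without its share over all genes. The difference for Cd74 was 1.72 ± 0.43 (log2, SE, edgeR adjusted p = 0.057), that for H2-Ab1 1.20 ± 0.54 (0.258), for H2-Aa 1.17 ± 0.51 (0.247), for H2-Eb1 1.02 ± 0.47 (0.273) and for Ciita 0.61 ± 0.26 (0.234). Without Bleo_vehicle replicate 1, Cd74 was called (2.11, adjusted p = 0.00173), and without both replicates 2 and 3, an alternative chosen after seeing the data, its difference was -0.01. In summed nuclei, more nuclei of a class and more RNA per nucleus cannot be told apart. Interstitial macrophages or monocytes made up 7.03%, 3.85% and 4.54% of nuclei in Bleo_vehicle against 1.23%, 2.22% and 1.66% in PBS_vehicle, without overlap, for which the two-sided exact permutation test gave p = 0.1, the smallest it can give with 3 against 3 libraries (adjusted p = 0.643). Alveolar macrophages made up 19.7%, 10.5% and 8.50% against 8.15%, 5.02% and 6.91%. Replicate 1, with the largest macrophage share, had the lowest Cd74 of the group.

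Against Bleo_vehicle, Bleo_NVP had less of Cd74, by 2.01 ± 0.45 on the log2 scale, a 4.02-fold lower level (edgeR adjusted p = 0.0267). Cd74 was the only 1 of the 7 that edgeR called, where it called 5.51% of genes. DESeq2 called 5 of the 7, but its share over all genes is not given. That count is therefore not read as a result about the members. The median difference of the 7 was -1.58, against -0.05 for all genes. H2-Ab1 (-2.17 ± 0.59, adjusted p = 0.054), H2-DMb1 (-1.27 ± 0.36, 0.0579), H2-Aa (-1.70 ± 0.54, 0.0834) and H2-Eb1 (-1.42 ± 0.50, 0.107) did not pass. H2-DMb1 was 5.37, 7.29 and 8.57 CPM in Bleo_vehicle and 2.56, 3.34 and 2.78 in Bleo_NVP, without overlap, and was 3.69 to 8.27 CPM in PBS_vehicle. The Cd74 call was lost without any 1 of the Bleo_NVP libraries (adjusted p = 0.101, 0.0649 and 0.124) and without Bleo_vehicle replicate 2 (0.0702), and without both Bleo_vehicle replicates 2 and 3 the difference was -0.30 (0.590).

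Other contrasts showed little. NVP-BHG712 in PBS mice called 0 of 7 members and 0.0% of all genes by edgeR, with no member and 43 genes in all at an unadjusted p under 0.05, and the members' log2 differences reached at most 0.23. Bleo_NVP against PBS_NVP called 0 of 7 and 0.0% of genes, with 1 member, H2-DMb1 (unadjusted p = 0.0114), and 397 genes at p under 0.05. The interaction term, which sets the response to NVP-BHG712 in bleomycin mice against that in PBS mice, called 0 of 7 members and 0.298% of genes, with 5 members at an unadjusted p under 0.05. Its value for Cd74 was -2.04 (edgeR adjusted p = 0.203). All of these contrasts share groups with one another.

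Within classes, Cd74 was the member called in the most classes. It passed the filter on low counts in 6 of the 10 classes tested and was called in 4 of them in both bleomycin contrasts. In fibroblasts and alveolar macrophages it passed largely through Bleo_vehicle libraries, so these classes are given by their values alone. The count of classes is therefore no support. In alveolar macrophages (7.14% and 5.02% of genes called in the 2 contrasts, given in the order Bleo_vehicle against PBS_vehicle, then Bleo_NVP against Bleo_vehicle), Cd74 measured 19.3, 5.03 and 7.63 CPM in PBS_vehicle, 23.2, 49.4 and 67.3 in Bleo_vehicle and 0, 20.4 and 8.94 in Bleo_NVP. In general capillary nuclei (3.77% and 4.25%) it was 21.2, 19.3 and 24.8, then 14.4, 86.9 and 129, then 11.6, 38.5 and 10.2 CPM. The differences there were 2.17 ± 0.49 (log2, SE, edgeR adjusted p = 0.0179) and -2.0 ± 0.53 (0.0415). In type I nuclei (4.97% and 5.82%) it was 6.03, 5.65 and 2.03, then 7.66, 37.2 and 46.5, then 4.31, 4.85 and 4.49 CPM. Its differences were 2.74 ± 0.51 (edgeR adjusted p = 0.00934) and -2.76 ± 0.54 (0.0124). Fibroblasts (3.05% and 6.50%) had 6.44, 0.932 and 0.611, then 6.30, 41.7 and 44.8, then 3.88, 1.84 and 3.1 CPM. In each of the 4 classes replicates 2 and 3 of Bleo_vehicle carried the difference, and without both of them Cd74 was called in 0 classes. Single libraries also decided the number of classes, which was 1 without Bleo_vehicle replicate 2 in both contrasts, 2 without PBS_vehicle replicate 2 or 3 in the former, and in the latter 2 without Bleo_vehicle replicate 3, 1 without Bleo_NVP replicate 1 or 2 and 0 without its replicate 3. Without other single libraries it reached up to 8. Fibroblast H2-Ab1 passed the filter in the same way, with 13, 2 and 1 UMIs in PBS_vehicle and 4, 39 and 151 in Bleo_vehicle.

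Type II nuclei, the largest epithelial carriers, gave no called member among the 5 tested, where 4.65% and 5.30% of genes were called (smallest adjusted p = 0.482 and 0.172, with 0 and 2 members at an unadjusted p under 0.05). Their Cd74 was 76.0, 83.4 and 105 CPM in PBS_vehicle, 29.9, 118 and 143 in Bleo_vehicle and 103, 34.4 and 66.4 in Bleo_NVP, and all 3 groups overlapped. Type II Ciita was 41.2, 26.2 and 46.8, then 14.9, 33.1 and 24.1, then 54.5, 48.2 and 35.9 CPM. Bleo_NVP thus lay above Bleo_vehicle in every library, by 0.76 ± 0.32 (log2, edgeR adjusted p = 0.182), the opposite sign to its Cd74 (-0.79 ± 0.42, 0.317). General capillary Ciita had the same sign, 0.97 ± 0.51 (0.323), with 79.0, 31.7 and 24.9 CPM in Bleo_vehicle and 46.5, 77.0 and 84.8 in Bleo_NVP, which overlapped. In ciliated (2.22% and 5.04% of genes called), club (2.62% and 2.04%), aerocyte (0.688% and 1.11%) and venous nuclei (0.674% and 1.26%) no member passed the filter on low counts. Dendritic, B, T or NK, arterial and lymphatic nuclei were too few in some groups for a test.

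Cd74 was high across the low classes in Bleo_vehicle replicates 2 and 3. In 11 classes with little class II (type I, ciliated, club, aerocyte, arterial, lymphatic, T or NK, fibroblast, pericyte, smooth muscle and mesothelial nuclei), replicate 3 held 200 to 344 Cd74 UMIs per 1000 nuclei, with 263 in the 11 together, and replicate 2 held 72.7 to 254, with 105 together. Bleo_vehicle replicate 1 held 15.2 together, and the other 9 libraries 6.68 to 46.9, though single small classes reached more, such as mesothelial nuclei of PBS_vehicle replicate 1 with 167 (30 nuclei), above the 108 of Bleo_vehicle replicate 2. General capillary nuclei of replicates 3 and 2 held 278 and 147 per 1000, inside these ranges. Type II nuclei held 511 in replicate 3, above its range, and 224 in replicate 2, inside it, and dendritic nuclei held 1597 and 775, above both. H2-Aa moved alike, with 99.4 and 45.2 UMIs per 1000 nuclei of the low classes in replicates 3 and 2, 4.79 in replicate 1 and 3.34 to 24.3 elsewhere. Ciita did not: its low-class value was 22.4, 23.5 and 19.7 per 1000 in Bleo_vehicle replicates 1, 2 and 3, all above the 4.06 to 13.3 of the other libraries.

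**Figure D3:**
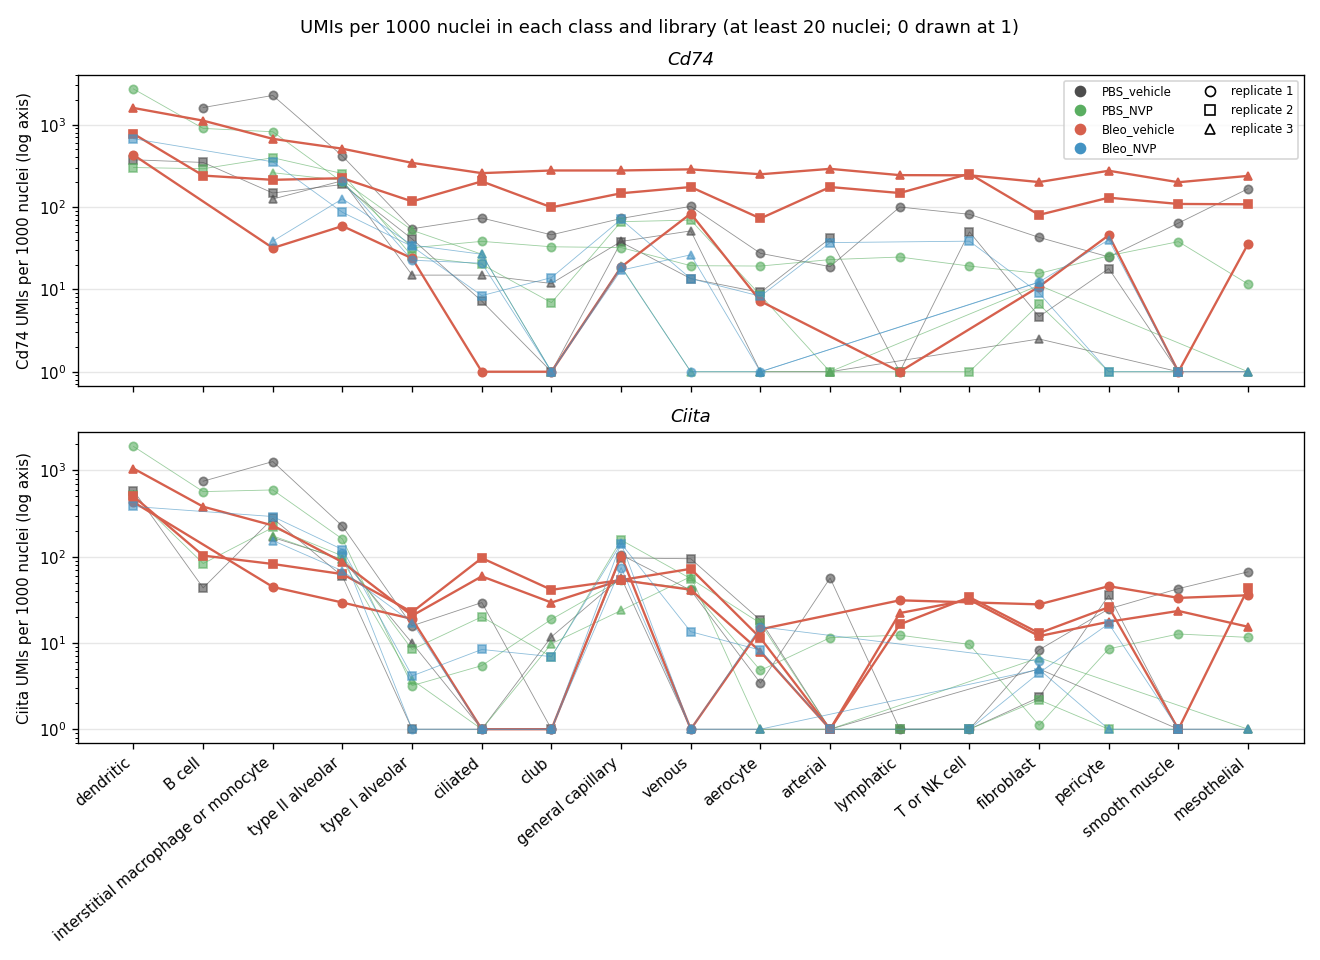
UMIs of Cd74 (top) and Ciita (bottom) per 1000 nuclei (y axes, log scale, 0 drawn at 1) in each class (x axis), 1 line per library with at least 20 nuclei of the class. For Cd74 the lines of Bleo_vehicle replicates 3 and 2 peak in dendritic nuclei (1597 and 775), where PBS_NVP replicate 1 lies higher (2718). In the low classes these 2 lines stay within 200 to 344 and 72.7 to 254. Their Ciita in general capillary nuclei, at 53.6 each, lies within the 23.8 to 156 of all libraries.

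Some marker lists of other cell types moved with these values. In fibroblasts, the summed level of the 13 type II markers was 390, 1403 and 1384 CPM in Bleo_vehicle replicates 1, 2 and 3 against 105 to 505 in the other libraries, with all 13 detected in every group. That of the 12 club markers was 1291, 4290 and 4638 against 1794 to 3383. Both lists were thus high in the libraries with high Cd74. In PBS_vehicle, however, club markers summed higher in fibroblasts (2663, 3304 and 1910 CPM) than in the whole lung (1485, 1940 and 1240). B cell markers did so too (250, 228 and 212 against 192, 135 and 97). From which cells the RNA of these 2 sums came was not tested, in PBS_vehicle or in Bleo_vehicle. The 17 interstitial macrophage or monocyte markers summed to 170, 87.9 and 67.1 CPM against 9.81 to 30.6, high in all 3 libraries and highest in replicate 1, as for fibroblast Ciita, which was 16.4, 6.74 and 2.67 CPM there and 0.276 to 1.94 elsewhere. The 14 B cell markers, at 71.8, 170 and 260 against 199 to 275, were not raised. The 19 T or NK cell markers, at 69.3, 44.3 and 31.7 against 11.6 to 21.0, were high in all 3 libraries, the 8 plasma cell markers were at 18.9, 24.4 and 36.5 against 3.88 to 19.0, and the 17 dendritic markers were at 105 to 113 against 57.0 to 90.3, with Xcr1 at 0. The part of RNA from other cells in the class II values of fibroblasts, type I and capillary nuclei was not tested.

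Interstitial macrophage or monocyte values had the opposite sign to those of the whole lung, a difference that was not tested. In interstitial macrophages or monocytes (0.249% and 0.0% of genes called), Ciita, H2-Eb1, H2-Aa and Cd74 had lower fitted values in Bleo_vehicle than in PBS_vehicle, and none was called. The differences were -1.51 ± 0.43 for Ciita (log2, edgeR adjusted p = 0.164), -1.36 ± 0.56 for H2-Eb1 (0.355) and -1.03 ± 0.50 for H2-Aa (0.446). That for Cd74 was -0.55 ± 0.72 (0.841), but 0.67 on the log2 scale without PBS_vehicle replicate 1. Ciita and H2-Eb1 had an unadjusted p under 0.05. H2-Ab1 passed the filter on low counts only through PBS libraries, so it is given by its values alone. It was 220, 102 and 43.1 CPM in PBS_vehicle and 8.84, 44.6 and 78.3 in Bleo_vehicle, which overlapped. Ciita also passed largely through PBS libraries. Ciita was 209, 219 and 86.2 CPM in PBS_vehicle, 178, 170 and 101 in PBS_NVP, 31.0, 46.9 and 83.0 in Bleo_vehicle and 233, 239 and 77.0 in Bleo_NVP, where replicate 1 had only 16 nuclei and was left out of the fit. All 3 Bleo_vehicle libraries lay below all PBS libraries, but narrowly. The nearest PBS value, 86.2 CPM in PBS_vehicle replicate 3, rested on 4 Ciita UMIs in 24 nuclei. With doublets kept the Ciita difference was -1.71 and was called (edgeR adjusted p = 0.0218). The share of all genes called in that setting is not given, so the call is not read as a result. Bleo_NVP against Bleo_vehicle gave 1.39 ± 0.52 for Ciita (0.615), with 1 member at an unadjusted p under 0.05.

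The class was made of clusters with different class II levels. Clusters led by St18 and Mmp12, both with the scavenger receptor Msr1 among their leading genes, made up 50.3%, 49.8% and 56.0% of the class in Bleo_vehicle replicates 1, 2 and 3, against 28.9%, 33.3% and 54.2% in PBS_vehicle. Mmp12 encodes macrophage elastase. With the libraries of a group summed, Ciita in these clusters was 16.5 CPM in Bleo_vehicle (22 UMIs in 502 nuclei, exact 95% Poisson interval 10.4 to 25.1) and 176 CPM in PBS_vehicle (19 UMIs in 44 nuclei, 106 to 274). By library it was 17.8, 4.39 and 19.2 in Bleo_vehicle against 223, 302 and 29.0 in PBS_vehicle, the last on 1 UMI, and 0, 511 and 0 in Bleo_NVP. Cd74 there was 80.5 CPM in Bleo_vehicle (66.0 to 97.2) against 240 (157 to 352) in PBS_vehicle, where libraries overlapped (17.8, 43.9 and 96.0 against 408, 151 and 29.0), and H2-Aa 40.6 (30.5 to 53.0) against 185 (113 to 285). PBS_NVP had 402 CPM of Cd74 and 389 of H2-Aa. The intervals cover counting error only. These clusters were singled out after their values were seen, each PBS library held 9 to 36 of their nuclei, and no test was made.

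In the cluster led by F13a1 and Cd163, a scavenger receptor of resident macrophages, Cd74 was 0, 217 and 548 CPM in Bleo_vehicle replicates 1, 2 and 3 and 379, 88.9 and 205 in PBS_vehicle, which overlapped. Its Ciita was 12.2, 89.8 and 142 CPM in Bleo_vehicle, below the 159, 178 and 205 of PBS_vehicle in every library. In the cluster led by Adgre4 and Gpr141, Cd74 was 94.2, 200 and 493 against 350, 115 and 0, and Ciita 126, 108 and 350 against 255, 192 and 457. Replicate 3 of Bleo_vehicle was the highest of its group for both genes in both clusters, PBS_vehicle libraries held only 4 to 22 nuclei of each, and whether the clusters differ in their response was not tested. With libraries summed, dendritic nuclei had 578 CPM of Cd74 in Bleo_vehicle (509 to 653) and 505 in PBS_vehicle (371 to 672), with 387 (331 to 449) and 699 (539 to 891) of Ciita. By library, dendritic Ciita was 374, 268 and 414 CPM in Bleo_vehicle and 761, 567 and 382 in PBS_vehicle, which overlapped. PBS_vehicle replicates 1, 2 and 3 held only 11, 24 and 2 dendritic nuclei. The intervals cover counting error only, and no test was made.

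**Figure D4:**
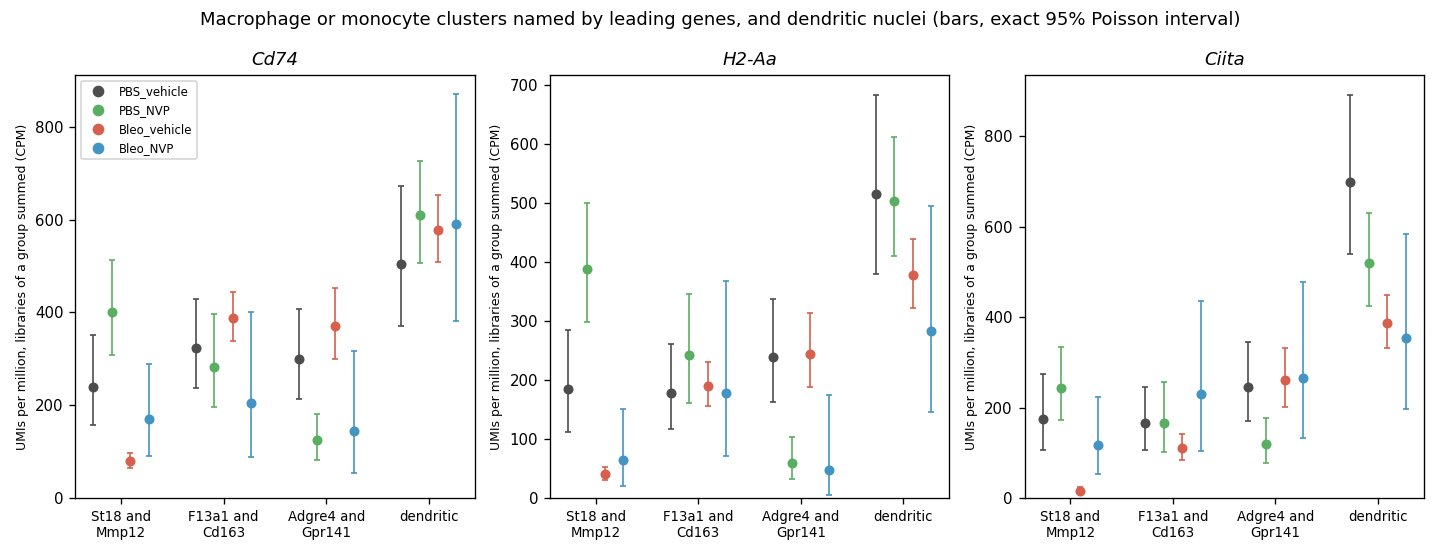
CPM of Cd74, H2-Aa and Ciita (y axes, linear) in 3 sets of macrophage or monocyte clusters named by leading genes and in dendritic nuclei (x axes), for each group with its libraries summed. Bars are exact 95% Poisson intervals of the counts and do not hold the spread between mice. In the St18 and Mmp12 clusters, Bleo_vehicle lies lowest, at 80.5 CPM for Cd74, 40.6 for H2-Aa and 16.5 for Ciita.

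Nuclei in which Ciita was seen were richer in Cd74 among macrophages. In interstitial macrophages or monocytes, Cd74 was 543 CPM in nuclei with a Ciita UMI and 149 CPM in nuclei without in PBS_vehicle, 421 and 186 in PBS_NVP, and 526 and 158 in Bleo_vehicle. Dendritic nuclei gave 561 and 323 in PBS_vehicle and 765 and 249 in PBS_NVP, but 564 and 596 in Bleo_vehicle. General capillary nuclei gave near values, 24.5 and 20.8 CPM in PBS_vehicle, on 6 Cd74 UMIs in the nuclei with Ciita, and 86.1 and 119 in Bleo_vehicle. Nuclei of 1 library are not replicates, and nuclei with more UMIs are more often seen with Ciita, so these are descriptions.

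Of the other genes of the pathway, lysosomal proteases rose in the whole lung. Of all 14442 genes tested there, 2.44% were called for Bleo_vehicle against PBS_vehicle and 5.51% for Bleo_NVP against Bleo_vehicle. In lists this short, 0 or 1 gene called is not read as a result about the list. In the whole lung 5 of the 6 lysosomal processing genes tested (7 listed) rose in the former contrast and fell in the latter. Their medians were 1.37 and -1.61 (all genes 0.01 and -0.05). Ctss, cathepsin S, which trims the invariant chain, was 51.9, 33.6 and 32.2 CPM in PBS_vehicle, 159, 132 and 112 in Bleo_vehicle and 34.1, 36.3 and 45.5 in Bleo_NVP. It rose by 1.84 ± 0.19 (log2, edgeR adjusted p = 0.000375) and fell by 1.78 on that scale (0.000566), and its 3 Bleo_vehicle libraries, replicate 1 included, lay above all others, which Cd74 did not show. Ctsb rose by 1.39 ± 0.21 (0.00804), Lgmn by 1.34 (0.00675) and Ctsd by 1.62 (0.0466). Of the 4 co-stimulation genes none was called under bleomycin, and Cd86 fell by 1.59 under NVP-BHG712 (0.0245). Among the 9 class I genes, 0 and 1 were called, H2-D1 by -0.81 (0.0186). The 7 factors at class II promoters gave 0 and 0 (medians -0.03 and 0.04), and the 7 genes of interferon gamma signalling to Ciita gave 0 and 0 (medians -0.01 and -0.11), with Irf1 at -0.01 under bleomycin. For these 2 lists together, 2 and 2 genes had an unadjusted p under 0.05. The turnover list gave 0 and 0 of 3 tested, with March1, a ligase that removes class II from the surface, at 1.37 (0.0798) and -1.24 (0.0724). Other class II chains gave 0 and 0 of 2 tested.

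Within classes, the interferon and promoter factor lists gave single calls. Jak1, a kinase of the interferon receptors, rose by 1.60 in ciliated nuclei of Bleo_vehicle (log2, edgeR adjusted p = 0.04) and was lower in Bleo_NVP (-1.85, 0.0192). Of the promoter factors, Nfyc, a subunit of the Y box factor, was higher in Bleo_NVP than in Bleo_vehicle in type I (0.85, 0.04) and type II nuclei (0.65, 0.0427), and Creb1 in fibroblasts (0.72, 0.034). Each was the only gene of its list called in that class, of 4 tested in ciliated, 6 in type I, 3 in type II and 5 in fibroblast nuclei. Of all genes, 2.22% and 5.04% were called in ciliated nuclei in the 2 contrasts. In the latter contrast 5.82% were called in type I, 5.30% in type II and 6.50% in fibroblast nuclei. These single calls are therefore not read as results about the lists. Ctss in fibroblasts was 27.7, 33.1 and 20.3 CPM in Bleo_vehicle against 0 to 2.48 in the other groups, and in general capillary nuclei 50.3, 65.4 and 35 against 0 to 6.78. In these classes it passed the filter on low counts through Bleo_vehicle, so no test is given. Its level in alveolar macrophages was 601, 717 and 711 CPM there, so these cells were far richer in it. In alveolar macrophages Nlrc5, the coactivator of class I genes and a relative of Ciita, was 68.1, 66.8 and 44.8 CPM in Bleo_vehicle. In PBS_vehicle it was 19.8, 17.6 and 19.1 CPM. These PBS_vehicle values lay below the level that the filter on low counts asks for, so no test is given. Ciita in the same nuclei was 40.6, 15.7 and 7.14 CPM in Bleo_vehicle against 14.8, 7.54 and 30.5 in PBS_vehicle, which overlapped (0.39 ± 0.76, adjusted p = 0.864).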

How the data were processed

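Nuclei sorted by DAPI from frozen lungs of 12 mice were sequenced by the authors with 10x Genomics 3' v3.1 kits. The deposited matrices hold raw UMI counts per gene and barcode, made by the authors with Cell Ranger on mm10 (version 7.0 in the submitters' processing notes, another in the file headers) and not corrected for free RNA or doublets.

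Barcodes with 200 to 6000 genes and at most 5% mitochondrial UMIs were kept (47319). The 2708 highest doublet scores (0.8% per 1000 nuclei) were removed, leaving 44611 nuclei. With scanpy 1.11.5, 2000 variable genes without 47 antigen presentation genes, 30 components corrected for library by Harmony, 20 neighbours and Leiden resolution 1 gave clusters, named by at least 3 markers over 2.5 fold. The interstitial macrophage cluster was split at resolution 0.5 after no dendritic cluster had formed. Counts were summed per library or class (libraries with at least 20 nuclei, 2 in each group) and tested in 1 fit of all libraries with the edgeR 4.0.16 quasi-likelihood test (TMM, filterByExpr, Benjamini-Hochberg over all genes tested, called under 0.05). On simulated whole-lung data 37.8% of genes changed 2 fold and 80.8% of those changed 4 fold were recovered for Bleo_vehicle against PBS_vehicle (14442 genes). In R 4.3.3, DESeq2 1.42.0 served as an alternative, beside other normalization, filters, clusterings, a replicate block and leaving out libraries. CPM are UMIs per 1000000 UMIs of the summed nuclei. Library depth was 3556084 to 61947690 UMIs. Intervals cover counting error only.

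Members and lists were chosen with earlier results of these data known. All 7 members are named, and at most 4 genes of each other list. Replicate numbers paired PBS_vehicle with PBS_NVP by the correlation of deviations from group means (r = 0.773, 0.443 and 0.558) but did not pair the bleomycin groups, and the labels do not state a pairing.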

Additional observations from a re-analysis of the deposited data

How the results depend on the processing

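For Bleo_vehicle against PBS_vehicle in the whole lung, 0 members were called in the reported fit and 1 with DESeq2 and with all deposited barcodes (0 to 1 leaving out 1 library). For Bleo_NVP against Bleo_vehicle, 1 was called in the reported fit, 5 with DESeq2, 3 with all deposited barcodes and 0 with no low count filter, with the 2 groups alone, with the strict nuclei filter and without both Bleo_vehicle replicates 2 and 3 (0 to 4 leaving out 1 library). Cd74 was called in 4 classes in each contrast, in 8 and 8 with no low count filter, in 2 and 2 with the 2 groups alone, in 2 and 2 without library correction and in 0 and 0 without both Bleo_vehicle replicates 2 and 3 (1 to 8 and 0 to 8 leaving out 1 library). For the other settings no share over all genes is given, so these counts describe the settings and not the members.

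Without both those replicates, chosen after seeing the data, whole-lung log2 differences against PBS_vehicle turned to -0.94 for H2-Aa, -0.91 for H2-Ab1, -0.83 for H2-Eb1, -0.12 for H2-DMb1 and -0.01 for Cd74, those of Bleo_NVP against Bleo_vehicle to 0.40 for H2-Aa and 0.41 for H2-Eb1, and the interaction to 0.23 and 0.18. H2-DMb1 also turned to -0.12 with the strict filter. Cd74 in interstitial macrophages or monocytes ranged from -1.28 to 0.67 leaving out 1 library (0.67 without PBS_vehicle replicate 1), and for Bleo_NVP to -0.01 with no low count filter, -2.98 without Bleo_NVP replicate 2 and -0.18 without Bleo_vehicle replicate 1 (range -2.98 to 0.94). General capillary Ciita, at -0.05, turned to 0.10 with DESeq2, 0.21 without PBS_vehicle replicate 2, 0.02 and 0.34 without Bleo_vehicle replicate 2 or 3 (range -0.38 to 0.34), and 0.08 without library correction. The cause was not tested. Of 525 class levels under other clusterings and filters, 524 moved by less than 1 SD between libraries.

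With the replicate block, members called numbered 0 for Bleo_vehicle against PBS_vehicle and 2 (Cd74 and H2-DMb1, adjusted p = 0.0404) for Bleo_NVP against Bleo_vehicle. The share of all genes called in that fit is not given, so these counts describe the setting and not the members. Between the bleomycin groups the samples share only a number.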
